A study of Homo sapiens with 4 samples.

Results

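The genes of the inflammasome and of the inflammatory caspases were described in HaCaT keratinocytes, a human epidermal keratinocyte line that grows without limit in culture. The 10 genes were the sensors NLRP1, NLRP3, NLRC4 and AIM2, the adaptor PYCARD, the caspases CASP1, CASP4, CASP5 and CASP8, and the pore former GSDMD. They were taken by symbol, and all 10 were found among 44591 gene rows, of which 19233 were protein-coding. RNA-seq was performed on 4 biological repeats of 1 condition, cells without treatment grown in Dulbecco's modified Eagle medium with 12% serum per the labels, so no treated or mutant group was compared. The libraries held 17056035 to 73082279 counts, and replicate 1 was the deepest. In replicate 1, 76.1% of counts lay in protein-coding genes, against 95.3% to 96.4% in replicates 2 to 4, so levels are given as TPM over protein-coding genes (the count per gene length, scaled to a sum of 1000000 in each replicate). In bulk RNA, fewer cells with a transcript and less of it per cell cannot be told apart.

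An inflammasome is a protein complex that assembles when a sensor meets a microbial or danger signal. The sensor recruits the adaptor PYCARD (also called ASC), which recruits and activates caspase-1, and this protease matures the cytokines IL-1β and IL-18 and cleaves gasdermin D, whose N-terminal part forms pores in the plasma membrane. Caspase-4 and caspase-5 bind bacterial lipopolysaccharide themselves and cleave gasdermin D without caspase-1, while caspase-8 starts apoptosis downstream of death receptors and restrains necroptosis. NLRP1 is known as a main inflammasome sensor of human keratinocytes, whereas NLRP3 and NLRC4 are best known from myeloid cells.

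The sensors were low as a group, while the adaptor, 3 of the 4 caspases and the pore former were measured well above the sensors in every replicate. Of the 10 genes, 6 had a mean TPM above 1, beside 63.3% of all protein-coding genes, and the same 6 had more than 3 counts in every replicate, beside 65.7% of all protein-coding genes. CASP4 and PYCARD were at percentiles 92.5 and 92.4 of the 12165 genes with a mean TPM above 1 (called detected below). GSDMD was at percentile 70.1, CASP1 at 63.5, CASP8 at 40.1 and NLRP1 at 13.7. The 10 genes summed to 564, 420, 437 and 400 TPM in replicates 1 to 4, and CASP4 and PYCARD together made up 79.6%, 75.1%, 77.2% and 71.6% of these sums.

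**Figure D1:**
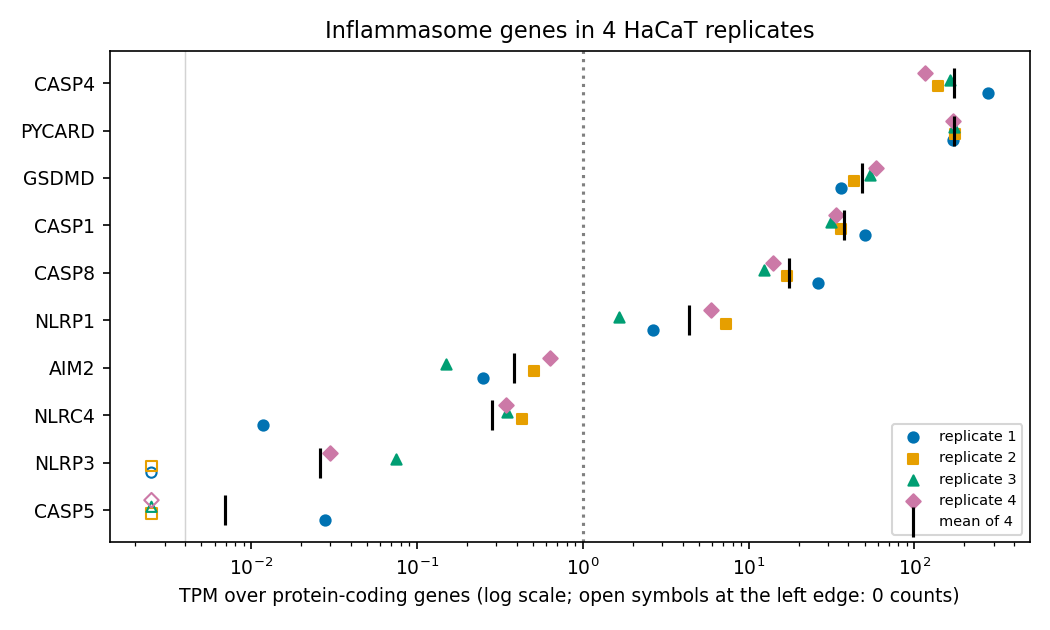
TPM over protein-coding genes (x axis, log scale) of the 10 genes in each of the 4 replicates (symbols), with the mean of 4 as a bar and the detection limit of 1 TPM as a dotted line; open symbols left of the grey line are replicates with 0 counts. CASP4 and PYCARD lie above 100 TPM in every replicate, and AIM2, NLRC4, NLRP3 and CASP5 lie below 1 in every replicate.

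Among the sensors, NLRP1, which is activated by loss of its N-terminal fragment and by ribotoxic stress signalling, alone among the 4 had a mean above 1 TPM. Its levels were 2.65, 7.30, 1.64 and 5.94 TPM in replicates 1 to 4 (mean 4.38 ± 2.68, SD, n = 4) from 392, 296, 90 and 270 counts. Replicates 2 and 4 were high and replicates 1 and 3 low, and the 95% counting intervals of replicate 3 (1.32 to 2.02 TPM) and replicate 1 (2.39 to 2.92 TPM) lay below those of replicate 4 (5.25 to 6.69 TPM) and replicate 2 (6.49 to 8.18 TPM). NLRP1 lies on chromosome 17 from 5404719 to 5487832 on the minus strand (hg19, as in the files), and it made up 91.0%, 88.7%, 74.2% and 85.5% of the summed TPM of the 4 sensors.

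AIM2, a sensor of double-stranded DNA in the cytosol (chromosome 1, 159032275 to 159046647), had 9, 5, 2 and 7 counts, or 0.250, 0.507, 0.150 and 0.633 TPM. NLRC4, which responds to bacterial flagellin and secretion system proteins through NAIP (chromosome 2, 32449518 to 32490812), had 1, 10, 11 and 9 counts, or 0.0117, 0.428, 0.348 and 0.343 TPM. The NLRC4 value of replicate 1, the deepest library, lay below the other 3. NLRP3, the sensor of potassium efflux and of many danger signals (chromosome 1, 247579458 to 247612410), had 0 counts in replicates 1 and 2, 3 in replicate 3 and 1 in replicate 4. Counts of 0 in replicates 1 and 2 allow up to 0.0274 and 0.1003 TPM (3 counts, counting error only). In those replicates NLRP3 was not detectable at this depth rather than shown to be absent. In replicates 3 and 4 it was seen at 0.0742 and 0.0298 TPM, at or below the limit of 3 counts.

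NLRP1 was above AIM2 by 1.82 ± 0.56 (SD, n = 4) on the log2(TPM + 1) scale, with the same sign in 4 of 4 replicates. An exact permutation test of the signs of the differences (two-sided) gave p = 0.13, the smallest p that 4 replicates allow, and an adjusted p of 0.14 (Benjamini-Hochberg over 8 pairs), so no pair can pass 0.05. Within replicates, counts per kilobase of NLRP1 were 10.6, 14.4, 10.9 and 9.39 times those of AIM2, with the widest 95% Clopper-Pearson interval, 2.94 to 91.8, in replicate 3. NLRP1 was above NLRP3 by 2.24 ± 0.81 in 4 of 4 replicates (exact permutation p = 0.13, adjusted p = 0.14). With NLRP3 set to the limit of 3 counts per library, NLRP1 was 96.4-fold higher per kilobase in replicate 1 and 72.8-fold in replicate 2. The lower 95% Clopper-Pearson limits of the ratio in these replicates were 78.0 and 58.8. Per kilobase, NLRP1 was 22.1 times NLRP3 (7.33 to 109) in replicate 3 and 199 times (35.4 to 7896) in replicate 4.

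PYCARD, the adaptor that joins pyrin and CARD domains, lies on chromosome 16 from 31212807 to 31214097 on the minus strand. Its levels were 171.1, 177, 173 and 170.0 TPM in replicates 1 to 4 (mean 173 ± 3.02, n = 4) from 3214, 909, 1202 and 979 counts. The 4 values lay within each other's counting intervals, which spanned 165 to 177 TPM in replicate 1 and 159.5 to 181 TPM in replicate 4. The coefficient of variation was 1.75%, and 4 of the 12165 detected genes, PYCARD included, had a value no larger, but this closeness depended on the scaling. With edgeR's TMM factors the 4 values were 167, 163, 204 and 157 (CV 12.2%), with DESeq2 size factors the CV was 10.9%, and in TPM over all rows, where replicate 1 fell to 53.0 TPM, it was 39.5%. The position of PYCARD overlaps that of the antisense gene PYCARD-AS1, which has its own counts (161, 273, 303 and 219). Since no strand setting is given in the sources used here, it is not known how reads from the overlap were assigned. The exon bases shared by both genes were not measured.

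The caspases share a catalytic cysteine in a short conserved stretch, and the coding sequence around it is printed because CASP4 and CASP5, close relatives in this stretch, stood far apart in expression. The 60 bases come from GENCODE transcripts on GRCh38, not the build of the files, with the cysteine codon in capitals, at codon 285 of CASP1 (chr11:105029245-105029701), 258 of CASP4 (chr11:104948654-104949579), 328 of CASP5 (chr11:104999006-105000297) and 419 of CASP8 (chr2:201285064-201285123). The 3 chromosome 11 windows are on the minus strand and cross an exon junction, and the CASP8 window is on the plus strand within exon 8.
CASP1: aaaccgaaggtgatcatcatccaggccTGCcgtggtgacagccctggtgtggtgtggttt
CASP4: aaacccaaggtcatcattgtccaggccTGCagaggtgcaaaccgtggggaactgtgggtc
CASP5: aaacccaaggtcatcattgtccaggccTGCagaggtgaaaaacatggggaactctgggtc
CASP8: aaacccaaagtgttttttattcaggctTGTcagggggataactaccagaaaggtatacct
CASP4 and CASP5 had the same base at 56 of these 60 positions, CASP1 and CASP4 at 44, and CASP4 and CASP8 at 30. Over the whole aligned coding sequence, CASP4 and CASP5 were 84.8% identical and CASP1 and CASP4 67.5%. Of 1569 stretches of 50 bases in CASP5 exons, 10 also occurred in CASP4, so few stretches of this length are shared by the 2 genes.

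CASP4, the lipopolysaccharide-binding caspase, had the highest mean of the 10 genes in TPM over protein-coding genes. PYCARD was higher by mean in TPM over all rows (129.8 against 115) and without replicate 1 (173 against 139.7). It was also higher in the deposited values (109 against 99.5), which mix RPKM in replicates 1 and 2 with TPM in replicates 3 and 4. From 9564, 1308, 2091 and 1230 counts, CASP4 was at 278, 139, 164 and 116 TPM over protein-coding genes in replicates 1 to 4. The mean of CASP4 was 174 ± 71.6 (n = 4), with replicate 1 above the other 3 on this scale. CASP5, its closest relative, had 1, 0, 0 and 0 counts, and 0 counts allow up to 0.303, 0.224 and 0.271 TPM in replicates 2 to 4. With CASP5 set to 3 counts per library, CASP4 was 458-fold higher per kilobase in replicate 2, 731-fold in replicate 3 and 430-fold in replicate 4. The lower 95% Clopper-Pearson limits of the ratio in these replicates were 372, 594 and 349. In replicate 1 the ratio was 10036 (1801 to 396447) against 1 count. In the hg19 positions of the files, CASP5 (104864967 to 104893895) lies between CASP4 (104813594 to 104839325) and CASP1 (104896235 to 104905884), all on the minus strand of chromosome 11.

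CASP1, the caspase of the canonical inflammasome, was at 50.003, 35.9, 31.6 and 33.5 TPM in replicates 1 to 4 (mean 37.7 ± 8.36, n = 4) from 2441, 479, 570 and 502 counts, again with replicate 1 highest on this scale. CASP4 was above CASP1 by 2.12 ± 0.33 on the log2(TPM + 1) scale in 4 of 4 replicates (exact permutation p = 0.13, adjusted p = 0.14), and the ratio of counts per kilobase was 5.55, 3.87, 5.20 and 3.47. CASP4 made up 84.7%, 79.5%, 83.9% and 77.6% of the summed TPM of CASP1, CASP4 and CASP5. PYCARD was above CASP1 by 2.19 ± 0.30 in 4 of 4 replicates (exact permutation p = 0.13, adjusted p = 0.14), at ratios of 3.42, 4.93, 5.48 and 5.07. Of 3115 stretches of 50 bases in CASP1 exons, 121 (3.88%) also occur in CARD16, a CARD-only relative. They are 13.1% of the 926 stretches of CARD16, so the counts of both genes carry that uncertainty.

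CASP8 (chromosome 2, 202098166 to 202152434, plus strand) was at 26.3, 17.1, 12.3 and 13.9 TPM (mean 17.4 ± 6.26, n = 4) from 2328, 415, 403 and 378 counts. It was below CASP1 by 1.11 ± 0.18 on the log2(TPM + 1) scale in 4 of 4 replicates (exact permutation p = 0.13, adjusted p = 0.14), at 0.526, 0.478, 0.390 and 0.415 of its counts per kilobase. Against CASP4 it stood at 0.0948, 0.124, 0.0751 and 0.120 of the counts per kilobase, a difference of -3.23 ± 0.33 on the log2(TPM + 1) scale, lower in 4 of 4 replicates (exact permutation p = 0.13, adjusted p = 0.14).

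GSDMD (chromosome 8, 144635557 to 144645232, plus strand), which encodes the pore-forming substrate of caspases 1, 4 and 5, was at 35.9, 43.3, 53.6 and 59.04 TPM (mean 48.0 ± 10.4, n = 4) from 2068, 683, 1143 and 1043 counts. Replicate 1 was the lowest, whereas CASP1, CASP4 and CASP8 were highest there. In TPM over all rows all 4 genes were lowest in replicate 1, where that scale shifted detected genes by a median of -1.56 on the log2 scale. Its difference from CASP1 changed sign between replicates: GSDMD stood at 0.718 of CASP1 per kilobase in replicate 1 (0.677 to 0.761) and at 1.21, 1.70 and 1.76 times CASP1 in replicates 2 to 4. The mean difference of 0.34 ± 0.59 on the log2(TPM + 1) scale, higher in 3 of 4 replicates, was within the spread between replicates (exact permutation p = 0.38, adjusted p = 0.38). Without replicate 1 it was 0.60 ± 0.29, higher in each of the other 3.

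**Figure D2:**
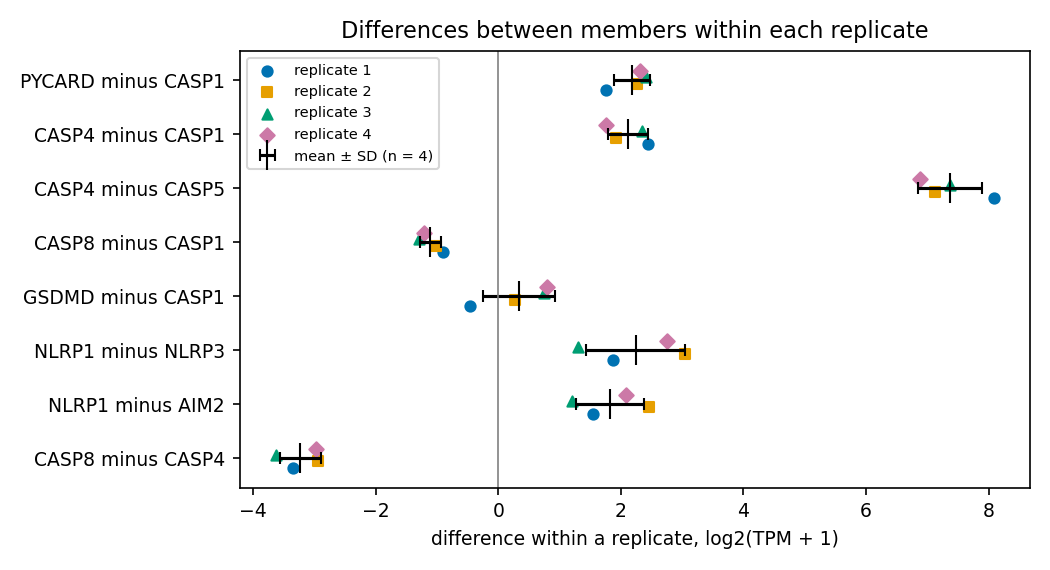
Differences of log2(TPM + 1) within each replicate (x axis, symbols by replicate) for 8 pairs of genes, with the mean ± SD over the 4 replicates in black and 0 as a grey line. In 7 pairs all 4 replicates lie on 1 side of 0, and in the pair GSDMD minus CASP1 replicate 1 lies on the other side.

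Ordered by mean TPM over protein-coding genes, the genes ran CASP4, PYCARD, GSDMD, CASP1, CASP8, NLRP1, AIM2, NLRC4, NLRP3 and CASP5. This order came from the same 4 replicates, so the neighbours and their direction were not chosen independently of the values tested. Of the 9 pairs of neighbours, 5 differed with the same sign in 4 of 4 replicates (exact permutation p = 0.13 each, adjusted p = 0.23 over the 9): PYCARD above GSDMD, CASP1 above CASP8, CASP8 above NLRP1, NLRP1 above AIM2 and NLRC4 above NLRP3. The last rests in replicate 1 on 1 count of NLRC4 against 0 of NLRP3, below the limit of 3 counts, so its sign in that replicate is not established. CASP4 and PYCARD could not be ordered, since CASP4 was higher in 1 of 4 replicates and the mean difference was -0.07 ± 0.54 on the log2(TPM + 1) scale. GSDMD and CASP1, AIM2 and NLRC4, and NLRP3 and CASP5 also did not differ beyond their spread.

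Among the 6 detected genes, NLRP1 varied most over replicates and PYCARD least in TPM over protein-coding genes. In TPM over all rows the CV was again highest for NLRP1 (80.0%) but lowest for CASP4 (21.1%). The SD of log2(TPM + 1) was 0.78 for NLRP1, at percentile 75.1 of the detected genes, and 0.54 for CASP4, at percentile 52.4. CASP8 (0.46), GSDMD (0.31), CASP1 (0.29) and PYCARD (0.03) were at percentiles 41.8, 21.7, 18.3 and 0.0247, and 4 of the 6 lay below the median of all detected genes, 0.52. Over replicates 2 to 4 alone, NLRP1 was at percentile 96.0 and CASP1 at 6.08.

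**Figure D3:**
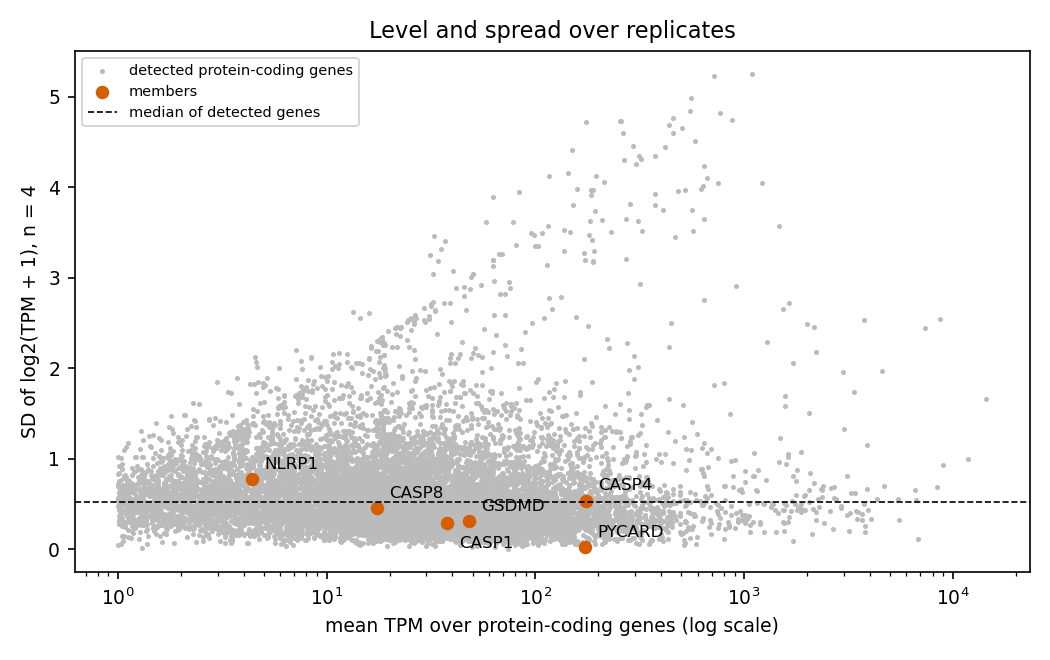
SD of log2(TPM + 1) over the 4 replicates (y axis) against mean TPM over protein-coding genes (x axis, log scale) for the 12165 detected genes in grey and the 6 detected inflammasome genes in orange, with the median SD of 0.52 as a dashed line. NLRP1 is the orange point highest above the line, and on this scaling PYCARD lies near the bottom of the grey cloud.

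The libraries differed by GC content and gene length. In replicate 1, the median of log2(TPM + 1) minus the mean of the other 3 was 0.68 over 4263 detected genes with a GC content under 45%, -0.23 over 5694 genes of 45% to 60% and -0.75 over 1931 genes over 60%. The same difference was 1.00 for CASP4 (46.2% GC), 0.83 for CASP8 (42.6%), 0.56 for CASP1 (41.0%), -0.02 for PYCARD (61.7%), -0.51 for GSDMD (64.6%) and -0.55 for NLRP1 (55.1%). PYCARD lay well above the median of its GC range. CASP4 also lay well above the median of its range, but its GC content was close to the limit of 45%, under which the median was 0.68. The part of GC content in the values of the 6 genes was not tested. In replicate 3, the median difference from the mean of the other 3 was -0.23 over all 12165 detected genes. It was -0.65 over 3010 genes longer than 5000 bp, -0.19 over 6377 genes of 2000 to 5000 bp and 0.13 over 2778 genes shorter than 2000 bp. NLRP1, with a length of 6099 bp in the files, differed by -1.17, and the part of length in this value was not tested.

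The genes nearest to NLRP1 in their pattern over the 4 replicates, by root mean square difference of centred log2(TPM + 1), were HECTD4 (0.05), ABCC3 (0.07) and UBR4 (0.09), and 6 of the detected genes lay within 0.1. HECTD4, a HECT domain ubiquitin ligase gene, was at 6.26, 15.2, 4.26 and 13.8 TPM, high in replicates 2 and 4 as NLRP1 was. Nearest to CASP4 were PDCL (0.02), RPL22 (0.03) and ING3 (0.03), and 43 genes lay within 0.1. RPL22, a ribosomal protein gene, was at 540, 282, 338 and 239 TPM.

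Interferon signalling is known to raise several inflammasome genes, among them AIM2, CASP1, CASP4, CASP5 and GSDMD, so the 10 genes were set beside 16 interferon-induced genes, a list whose replicate pattern was known from earlier results. Each of the 16 had its 2 highest values in replicates 2 and 3, beside 14.9% of all detected genes. As the list was chosen with this pattern known from these data, the count is a description and not a test. All 16 kept this pair in TPM over all rows, the deposited values, counts scaled to the protein-coding total, and with the TMM and DESeq2 factors. ISG15, a ubiquitin-like modifier, was at 87.4, 2711, 3177 and 179 TPM, and IFI6, a mitochondrial survival protein, at 11.6, 2417, 2442 and 29.2 TPM, with IFI27 at 8.34, 802, 687 and 3.93 TPM. Of the 6 detected inflammasome genes, 1 had this pair highest, PYCARD, whose values lay within counting error. None had it with the TMM or DESeq2 factors, beside 20.6% and 20.2% of genes with a mean above 1. In TPM over all rows the 1 gene was CASP4, beside 19.5% of such genes. CASP1, CASP4 and CASP8 were highest in replicate 1, as were 40.2% of all detected genes. In TPM over all rows none of the 6 was highest there, beside 3.75% of genes with a mean above 1 on that scale. Among the genes below 1 TPM, NLRC4 had its highest values in replicates 2 and 3 (0.428 and 0.348 TPM), but replicate 4 was close at 0.343 TPM. AIM2 was highest in replicates 4 and 2, and CASP5 had 0 counts in replicates 2 and 3, and these counts are too low to order the replicates.

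**Figure D4:**
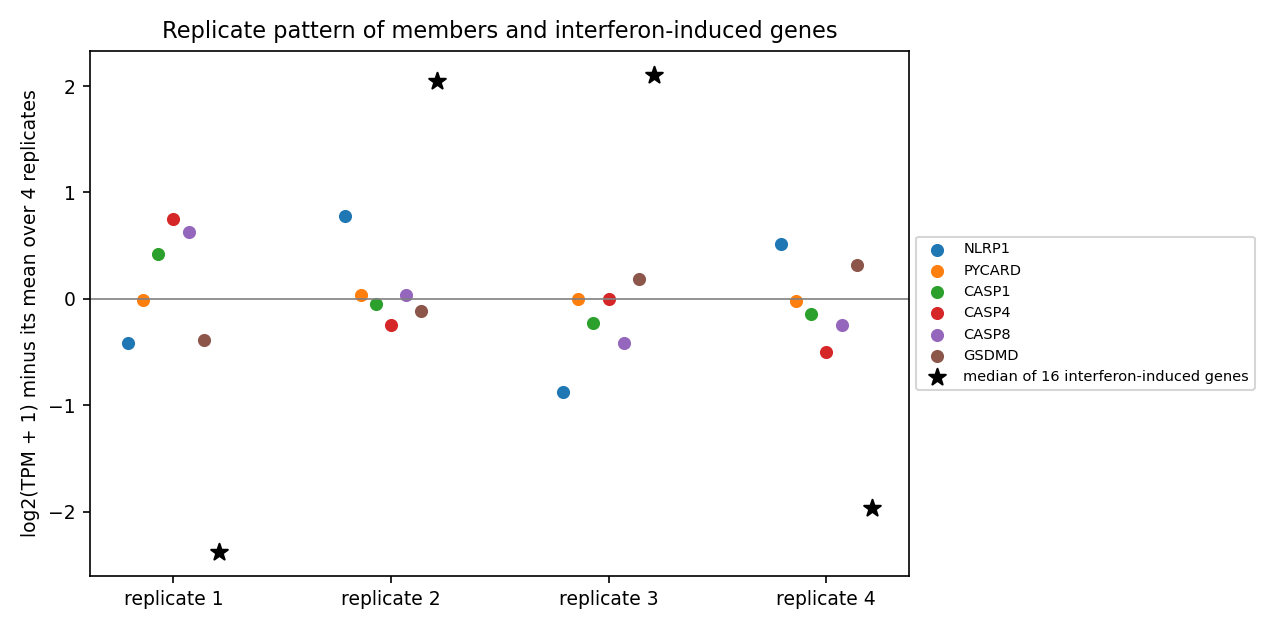
log2(TPM + 1) minus its mean over the 4 replicates (y axis) for the 6 detected inflammasome genes (coloured points) and the median over 16 interferon-induced genes (black star), by replicate (x axis). The star lies near 2 in replicates 2 and 3 and near -2 in replicates 1 and 4, while every inflammasome gene lies between -1 and 1.

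Promoters are printed to show where the letters of interferon response elements occur in CASP5 and IFI6 and not in CASP4 and PYCARD. They are the 250 bases before the transcript start from RefSeq (GRCh38.p14), all on the minus strand: CASP4 chr11:104968575-104968824, CASP5 chr11:105023169-105023418, PYCARD chr16:31202761-31203010 and IFI6 chr1:27672193-27672442. Capitals mark GAAANNGAA, the core of the interferon-stimulated response element, and TTCNNNGAA, the core of the gamma-activated site, searched on both strands.
CASP4: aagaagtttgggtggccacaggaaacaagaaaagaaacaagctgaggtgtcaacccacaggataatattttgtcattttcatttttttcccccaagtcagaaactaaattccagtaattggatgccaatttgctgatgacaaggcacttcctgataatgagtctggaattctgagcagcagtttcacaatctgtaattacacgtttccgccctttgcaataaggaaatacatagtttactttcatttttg
CASP5: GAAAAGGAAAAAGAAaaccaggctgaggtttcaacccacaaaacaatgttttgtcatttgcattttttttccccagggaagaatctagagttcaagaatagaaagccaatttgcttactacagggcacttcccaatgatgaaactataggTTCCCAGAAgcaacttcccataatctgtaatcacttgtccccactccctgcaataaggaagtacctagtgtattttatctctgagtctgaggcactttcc
PYCARD: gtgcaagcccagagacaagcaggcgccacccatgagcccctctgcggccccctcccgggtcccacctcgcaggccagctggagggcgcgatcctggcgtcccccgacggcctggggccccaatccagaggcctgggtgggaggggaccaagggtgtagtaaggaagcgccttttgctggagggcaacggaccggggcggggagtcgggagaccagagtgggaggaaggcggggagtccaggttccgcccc
IFI6: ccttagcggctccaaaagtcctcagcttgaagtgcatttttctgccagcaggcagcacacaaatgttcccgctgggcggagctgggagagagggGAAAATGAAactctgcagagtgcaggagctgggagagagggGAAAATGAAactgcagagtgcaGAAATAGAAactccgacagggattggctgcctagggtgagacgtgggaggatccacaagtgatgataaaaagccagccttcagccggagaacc
The IFI6 window held 3 response element cores, the CASP5 window 2 overlapping ones and 1 gamma-activated site, and the CASP4 and PYCARD windows neither. CASP4 and CASP5 were 75.3% identical over 231 aligned bases of these windows. The response element core occurred in 6.88% of 35116 promoters and the gamma-activated site in 6.57%. The set of RefSeq promoters used here held 11 promoters of 7 of the 10 genes, and none of NLRP1, CASP1 and GSDMD. Of the 11, 3 had the response element core (1 each of AIM2, NLRC4 and CASP5) and 2 the gamma-activated site (1 each of CASP8 and CASP5). Of the 19 promoters of 12 interferon-induced genes, 14 had the response element core. A match is a description of the letters only, and CASP5, with both, had 1 count in the 4 libraries.

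Other genes of the pathway were read from 8 lists of 85 genes, of which 84 were in the table and 61 (72.6%) were detected, beside 63.3% of all protein-coding genes. Of 17 other sensors and sensor-like genes, 8 were detected. The highest were IFI16, a nuclear DNA sensor of the AIM2 family, at 146, 242, 149 and 147 TPM, NLRP2 at 89.8, 55.3, 56.6 and 90.8 TPM, and NLRX1, a mitochondrial NLR protein, at 19.99, 33.4, 29.4 and 34.1 TPM. IFI16 was above AIM2 in every replicate, with 95% Clopper-Pearson intervals of the ratio per kilobase from 112 to 577 in replicate 4 and from 275 to 8203 in replicate 3, where AIM2 had 2 counts. NLRP2 was 33.9, 7.58, 34.5 and 15.3 times NLRP1. NAIP, the partner of NLRC4, had 8, 1, 0 and 1 counts and was chosen after its values were seen.

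Of 15 genes that control sensors, 13 were detected, with TXN (thioredoxin) at 919 to 1994 TPM, HSP90AB1, a chaperone of NLR proteins, at 763 to 1635 TPM and TXNIP, an inhibitor of thioredoxin, at 573, 152, 115 and 61.3 TPM. DPP9, the protease that holds NLRP1 inactive, was at 13.3, 80.9, 68.97 and 87.2 TPM and was named after its values were seen. Of the 10 decoys and inhibitors in the table, 6 were detected. SERPINB1, an inhibitor of inflammatory caspases, was highest at 35.8, 123, 85.4 and 88.8 TPM, with BIRC2 at 18.3 to 95.8 and BIRC3 at 12.7 to 51.3 TPM, both ubiquitin ligases that restrain cell death. CARD16 was at 33.4, 16.5, 15.9 and 26.2 TPM, or 0.669, 0.459, 0.502 and 0.781 of the TPM of CASP1. The stretches that CARD16 shares with CASP1 limit these ratios.

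Among the other caspases, 6 of 7 were detected, among them CASP2 at 16.5, 28.7, 19.9 and 24.7 TPM. Each of the 7 was below CASP4 in every replicate. Of 11 partners of CASP8, 10 were detected. Its adaptor FADD was at 105, 139, 179 and 118 TPM, and the death receptors TNFRSF1A and TNFRSF10B were at 63.5 to 191 and 33.0 to 72.2 TPM. FADD was above CASP8 in 4 of 4 replicates.

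Of 8 genes of gasdermins and membrane rupture or repair, 6 were detected. CHMP4B and CHMP3, of the ESCRT-III complex that repairs gasdermin pores, were at 136 to 254 and 9.97 to 82.6 TPM, and NINJ1, which ruptures the membrane after pore formation, was at 82.6, 123, 99.2 and 127 TPM. Of the 9 genes of transcriptional control, 8 were detected, with RELA, a subunit of NF-κB, at 33.3 to 192 TPM.

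Of 7 cytokines and danger signals of the pathway, 4 were detected. IL18, the cytokine that keratinocytes hold ready as a precursor, was at 514, 219, 207 and 189 TPM in replicates 1 to 4, and IL1B was at 3.93, 92.9, 64.8 and 61.1 TPM from 143, 925, 872 and 682 counts. IL18 was above IL1B in 4 of 4 replicates, 131 times in replicate 1 and 2.36, 3.19 and 3.09 times in replicates 2 to 4. HMGB1, a nuclear protein released from dying cells, was at 267, 169, 224 and 176 TPM, and IL1A at 0.365, 16.9, 10.2 and 11.7 TPM. IL1B and IL1A were lowest in replicate 1, also in TPM over all rows. IL18 and HMGB1 were highest in replicate 1 on this scale and lowest there in TPM over all rows, at 159 and 82.7 TPM.

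All 8 keratinocyte markers were detected, with KRT14 at 6375 to 7642 TPM and KRT5 at 1920 to 5396 TPM, the keratins of basal keratinocytes. Of 11 leukocyte markers, CD68 (7.94, 43.9, 38.2 and 16.1 TPM) and CD14 (3.03, 8.08, 4.99 and 8.92 TPM) were detected, 3 (TYROBP, AIF1 and MS4A1) had 0 counts in every replicate, and the pan-leukocyte gene PTPRC had 3 counts in replicate 1 and 0 in the others. The summed TPM of the leukocyte list was 11.5, 53.1, 43.8 and 25.5. Of 7 fibroblast markers 2 were detected, COL1A1 (0.500 to 8.54 TPM) and LUM (0 to 3.35 TPM). Of 5 melanocyte markers 1 was detected, PMEL (1.36 to 2.87 TPM), with MLANA at 0 to 0.592 TPM, and of 4 endothelial markers none, with CDH5 at 0 to 1.49 and VWF at 0 to 2.36 TPM.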

How the data were processed

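Total RNA of 4 HaCaT replicates was sequenced from 1 ug of RNA per library with Illumina protocols. Serum in the medium is given as 12% in the labels, and the methods state another value. The authors deposited raw counts per gene with a gene length and position (hg19), RPKM for replicates 1 and 2, and TPM for replicates 3 and 4. The submitters' processing notes name HISAT2, TopHat2, Bowtie2, HISAT and hg19 with no role, and the counting program, annotation and strand setting are not given in the sources used here. The deposited RPKM and TPM values were recomputed from counts and lengths, with a largest relative difference of 6.66e-07.

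TPM over 19233 protein-coding rows was computed for all 4 replicates from counts and deposited lengths and used on the log2(TPM + 1) scale, on which a fold understates the change of low genes. A mean TPM above 1 was called detected, and 3 counts were taken as the limit that 0 counts allow. This limit lies below the upper end of the two-sided 95% Poisson interval of 0 counts. For differences within replicates, the exact permutation test flips the sign of each difference and is two-sided. Ratios have 95% Clopper-Pearson intervals and TPM values 95% exact Poisson intervals, which hold counting error alone, as PCR copies were not marked by molecular identifiers. No 2 libraries shared more than 0.608% of counts among detected genes.

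The members, lists and tests were chosen with earlier results of these data known. Named genes were all members, the 3 highest of each list, IL1B, IL18, CARD16, the 2 highest markers of each marker list, and the 3 nearest profiles of the 2 most variable members. Exceptions (NAIP, DPP9, IL1A, PTPRC and the markers at 0) were chosen after their values were seen, and some genes that the rule names are not reported here. CASP12 was not among the protein-coding rows. GC content and coding sequences came from GENCODE release 29 (GRCh38), and a planned alignment of proteins was replaced by coding sequences, since no protein table was used here. The script was tested on simulated data. Alternatives were other scalings (TPM over all rows, deposited values, counts scaled to the protein-coding total without gene length, edgeR TMM factors, DESeq2 size factors), exon lengths, a pseudocount of 0.1, other detection limits, leaving out mitochondrial and histone genes, and leaving out each replicate. The tools were R 4.3.3, edgeR 4.0.16, DESeq2 1.42.0, Biopython 1.88, Python 3.11.15, SciPy 1.17.1, NumPy 2.4.6, pandas 2.3.3 and matplotlib 3.10.9.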

Additional observations from a re-analysis of the deposited data

Results flagged for a closer look

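Of 27 sets of 4 replicate values examined for a single replicate far from the others, 3 stood out. A rate of 1 in 20 would give 1.35, but that rate holds for independent sets of normal values. These sets share the same replicates and some overlap, as IL18 is also in a list sum, so no chance expectation can be given. In CASP5 the gap of replicate 1 to the others was the whole range (1.00). This rests on 1 count against 0, 0 and 0, and any gene with counts in 1 replicate only has this value. In IL18 the gap of replicate 1 (514 TPM) to the nearest of the others (219 TPM) was 0.906 of the range, but in TPM over all rows replicate 1 was the lowest (159 TPM) and the gap was 0.457. In the summed TPM of the 7 other caspases the gap of replicate 1 (126) to the nearest of the others (91.0) was 0.896 of the range, and in TPM over all rows replicate 1 (39.0) was the lowest, with a gap of 0.958. All 3 stood out in replicate 1, the deepest library and the library with the lowest share of protein-coding counts (76.1%), and the part of these properties was not tested.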

How the results depend on the processing

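The 8 differences between pairs kept their sign under every alternative run, and none can pass 0.05 with 4 replicates. The number of detected members stayed at 6 in TPM over all rows, the deposited values, with TMM and DESeq2 factors, with exon lengths, without mitochondrial and histone genes and without each replicate. It was not counted in counts scaled to the protein-coding total, and was 8 with a limit of 0.1 TPM or with more than 3 counts in any replicate. The number of members highest in replicate 1 fell from 3 to 0 in TPM over all rows and in the deposited values. The share of all genes above 1 fell with it, from 40.2% to 3.75% and 5.27%. The deposited values are RPKM in replicates 1 and 2 and TPM in replicates 3 and 4, so comparisons between replicates there mix units. The median shift of detected genes on the log2 scale was -1.56 for replicate 1 in TPM over all rows and 0.22 for replicate 3 with TMM. The number with the highest pair in replicates 2 and 3 fell from 1 to 0 in the deposited values, counts scaled to the protein-coding total, TMM, DESeq2 size factors, exon lengths and without mitochondrial and histone genes. The shares of all genes above 1 with this pair were 1.46%, 18.4%, 20.6%, 20.2%, 13.8% and 12.1% in that order, beside 14.9% in TPM over protein-coding genes. The member with this pair was PYCARD, whose 4 values lie within each other's counting intervals. Neighbours with the same sign in every replicate numbered 5 of 9, 4 in counts scaled to the protein-coding total and 5 to 7 without 1 replicate. The difference of GSDMD and CASP1 (0.34) ranged from 0.18 without replicate 4 to 0.60 without replicate 1. The percent of genes with a CV no larger than PYCARD's was 0.0329, and 28.5 in TPM over all rows, 31.0 in the deposited values, 1.42 in counts scaled to the protein-coding total, 4.84 with TMM and 3.69 with DESeq2 factors. PYCARD's mean was 117 TPM with exon lengths, where its length is 1541 bp in place of 773 bp. No paired analysis was possible because there is 1 group, and the differences between genes were already taken within replicates. Depth limits NLRP3, NLRC4, AIM2 and CASP5, each with 11 or fewer counts per library.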
